A study of Mus musculus with 10 samples.

Results

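Mature LysoDCs of mouse Peyer's patches are described here across genes, against the immature and intermediate LysoDCs sorted beside them. Peyer's patches are the lymphoid follicles of the small intestine, and LysoDCs are monocyte-derived, lysozyme-expressing phagocytes of the dome, the zone under the epithelium that samples the gut lumen. The members were the cells that carried the antibody hashtag of the mature gate and no other hashtag and that passed filters on UMIs (unique molecular identifiers, the counted mRNA molecules), genes and mitochondrial share. They numbered 455, of 2714 LysoDCs and 7217 cells in all. A set of 57 of them, with under 10 summed UMIs of C1qa, C1qb and C1qc, is reported apart from the other 398. C1q is the complement protein that LysoDCs make in large amounts, so these counts chose the 57 cells and are no finding.

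All Peyer's patch populations came from 1 pool of 30 untreated female C57BL/6Rj mice, and blood populations from 20 mice of the same strain and sex given clodronate liposomes, which deplete phagocytes, 9 days before. The ages of the mice are not given in the sources used here. Peyer's patch cells were freed with collagenase II and DNase I, enriched with CD11c beads, sorted, tagged after the sort and run with the blood cells in 1 droplet library. The gates used surface staining for CD11c and MHC class II, for the lineage proteins CD11b, CD24, XCR1, SIRPa and CD101, and for MerTK, CD4, embigin and the junction protein JAM-A. The direction of each gate is not given in the sources used here. The immature gate gave 655 cells and the intermediate gate 983, beside 621 follicular LysoDCs, 970 immature cDC2s (type 2 conventional dendritic cells) and 261 maturing cDC2s. The blood gave 1678 CD115hi cells without Ly6C and CD43, 931 Ly6C+ monocytes and 663 CD43+ monocytes. Each population is therefore 1 sum of counts from pooled mice, with no replicate, and no test between populations is possible. Intervals are exact 95% intervals for counting error only.

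Dendritic cells mature by loading peptides on MHC class II, raising costimulatory molecules and changing their chemokine receptors. LysoDCs share these abilities with phagocytic, macrophage-like functions such as lysosomal digestion and complement production. Lymphotoxin beta and adhesion molecules of the kind described below take part in contacts between lymphoid cells, stroma and epithelium.

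The mature cells held 6119565 gene UMIs, with a median of 13588 UMIs and 3275 genes per cell, close to the 13652 of immature and 14279 of intermediate cells. The gate had been sorted to 2400 cells. Of 1044 barcodes with the mature hashtag, 589 carried no other, and 455 of these passed the filters. The barcodes with a second hashtag also numbered 455 and were left out, among them 106 with the intermediate tag. No doublet caller was run, so pairs of cells from 1 gate were not removed. The labels also name mature LysoDCs in a second dataset, from 20 untreated mice, which is not analysed here. Its single deposited matrix holds all 4 LysoDC subsets under the same 4 hashtags, so its cells cannot be assigned to a subset by label. Of the 455 mature barcodes, 3 also occurred there.

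The label was checked on LysoDC genes. Lyz1, the lysozyme gene that names these cells, stood at 10669 CPM (UMIs of the gene per 1000000 UMIs of the population) in mature cells, 13884 in immature and 11915 in intermediate cells, against 528 in immature cDC2s. Of 14 measured LysoDC identity genes, 1 was at least 2-fold higher in mature than in immature cells (Cd300a, an inhibitory receptor) and 0 were lower. Of all genes measured, 1.31% were higher and 0.36% were lower. The mature gate thus held lysozyme-rich cells, although the C1q-low cells did not share this level, as given below. F11r, which encodes JAM-A, and Cd24a belong to proteins stained for the sort and serve as gate checks. F11r had 9.56 CPM in immature cells, 56.1 CPM in intermediate cells and 80.1 CPM in mature cells.

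Mature and immature cells differed in few genes. Among 6950 genes with a mean of at least 10 CPM over both populations, 91 were at least 2-fold higher in mature cells (1.31% of genes measured) and 25 were at least 2-fold lower (0.36%). The 91 include F11r and Cd24a, which are gate checks. Of the 91, 80 had an intermediate-gate level between the other gates, and in 50 the intervals of all 3 gates were apart. All 25 lower genes had an intermediate level between, with intervals apart in 15. Against intermediate cells, 34 of 6915 genes were higher (0.492%) and 2 were lower (0.0289%), which were Cp and C3. Of the 91 genes, 30 were at least 2-fold above both other gates. From immature to intermediate cells 21 of 6890 genes were higher (0.305%) and 3 were lower (0.0435%). Without the C1q-low cells described below, the counts against intermediate cells were 12 higher and 8 lower. Against follicular LysoDCs, which lie in the follicle below the dome, 146 of 7018 genes were higher in mature cells (2.08%) and 87 were lower (1.24%), and Plet1, at 3.77 CPM there, was 40.1-fold lower than in mature cells.

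The promoters of 3 of the marker genes given for mature LysoDCs, Plet1, Ltb and Cd9, are shown because the levels of these genes are ordered over the gates. They are the RefSeq bases upstream of the start on GRCm38.p6, 5′ to 3′ on the gene's strand, shortened where the GENCODE gene begins earlier. Capitals mark a TGANTCA (like an AP-1 site, but with any base at N) or a GAGGAAG (a PU.1-type ETS core), searched on both strands.
Plet1: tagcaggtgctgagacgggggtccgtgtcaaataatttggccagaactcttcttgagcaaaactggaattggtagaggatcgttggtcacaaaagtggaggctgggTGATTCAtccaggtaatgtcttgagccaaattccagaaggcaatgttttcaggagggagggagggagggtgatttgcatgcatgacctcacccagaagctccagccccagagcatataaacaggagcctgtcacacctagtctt
Ltb: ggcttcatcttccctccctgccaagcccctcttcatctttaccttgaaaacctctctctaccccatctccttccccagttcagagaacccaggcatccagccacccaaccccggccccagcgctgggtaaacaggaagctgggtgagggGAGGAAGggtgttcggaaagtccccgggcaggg
Cd9: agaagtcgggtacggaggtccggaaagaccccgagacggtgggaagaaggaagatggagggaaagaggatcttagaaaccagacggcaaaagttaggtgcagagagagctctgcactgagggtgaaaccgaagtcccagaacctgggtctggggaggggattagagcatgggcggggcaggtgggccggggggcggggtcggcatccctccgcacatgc
The Plet1 window is chr9:50494275-50494524 on the plus strand, the Ltb window chr17:35194257-35194438 on the plus strand and the Cd9 window chr6:125494792-125495010 on the minus strand. TGANTCA occurs in 6.75% of 32851 RefSeq promoters over the 250 bases upstream, and GAGGAAG in 10.6%. GGAAATTCC, an NF-kB type site, occurs in 0.286% and in none of these 3 windows. Only this exact sequence was searched, so the windows may hold other NF-kB type sequences. These matches are a description of letters and were not tied to binding of any factor.

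Plet1, a GPI-anchored surface protein, had the widest range of the 4 given markers. The gene lies at chr9:50494525-50505482 on the plus strand (GRCm38, GENCODE M21). Its level was 7.51 CPM (5.81 to 9.56) in immature, 39.6 CPM (36.4 to 43.0) in intermediate and 151 CPM (141 to 161) in mature cells. The 3 intervals were apart, and mature cells stood 20.1-fold (15.6 to 26.2) above immature cells. With every cell thinned to 5000 UMIs, a Plet1 UMI was found in 37.0% of mature cells, 13.3% of intermediate and 2.58% of immature cells, against 0.561% of the blood cells without Ly6C and CD43 at the same depth. Plet1 transcripts were spread over cells: of the 398 mature cells with 10 or more C1q UMIs, 193 had at least 1, and the top 3 cells held 6.80% of the UMIs. In 380 of these cells thinned to 5000 UMIs, 136 had Plet1 and 77 had Ltb, and 38 had both, where the product of the shares gives 27.6 cells.

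**Figure D1:**
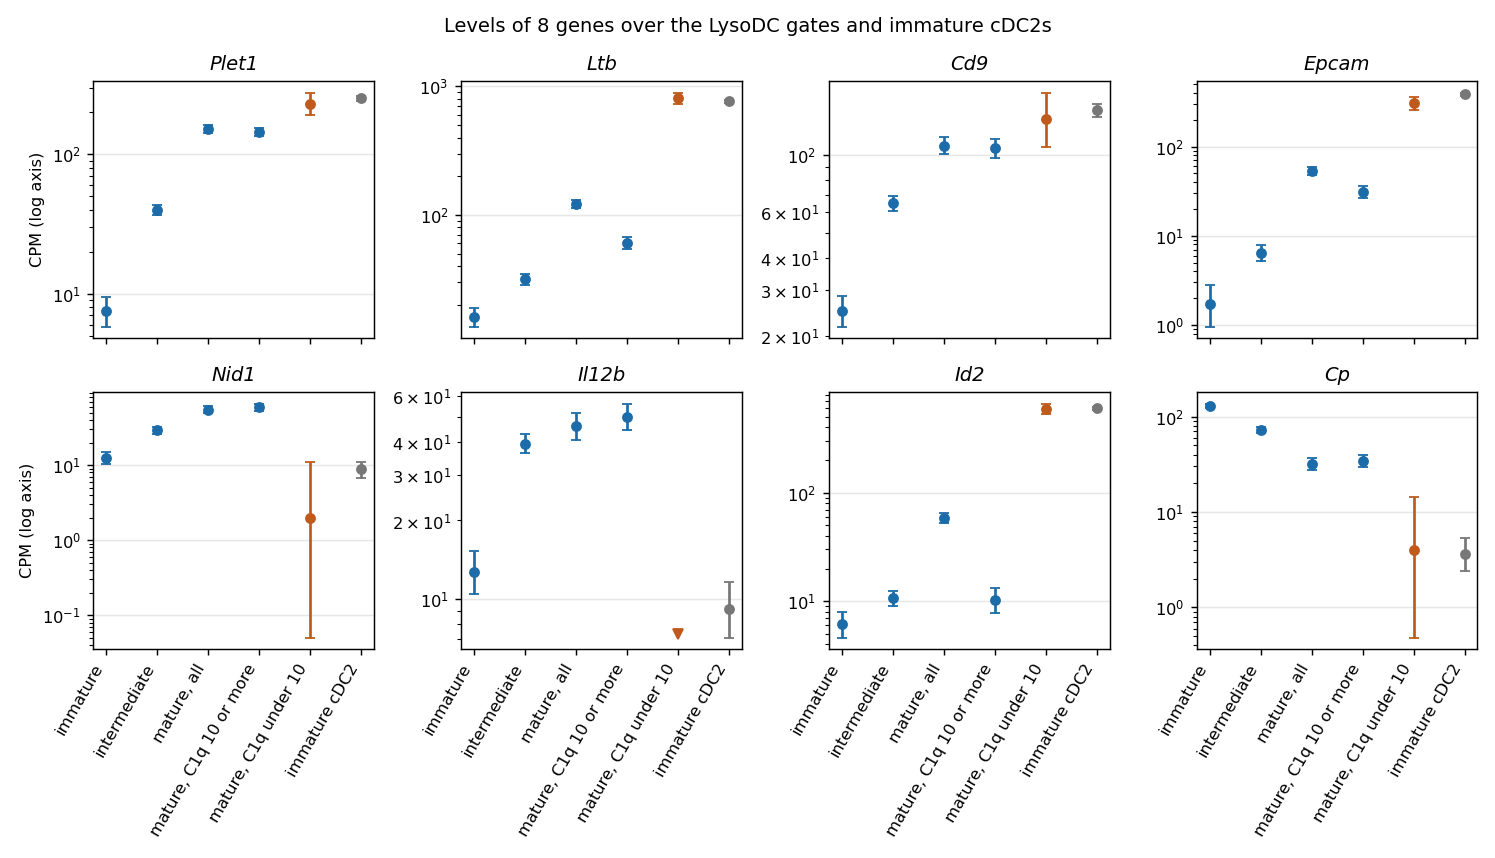
Level of 8 genes in CPM on a log axis in immature, intermediate and mature LysoDCs, in mature cells split at 10 C1q UMIs, and in immature cDC2s. Points are sums over cells with exact 95% Poisson intervals, and a triangle is the upper bound of a level with 0 UMIs; Plet1 goes from 7.51 CPM in immature to 151 CPM in mature cells and Cp from 129 to 31.9 CPM, and Id2 lies at 594 CPM in the C1q-low cells beside 602 CPM in the cDC2s.

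Ltb, which encodes the membrane-bound TNF family ligand lymphotoxin beta, stood at 16.1 CPM in immature, 31.6 CPM in intermediate and 122 CPM in mature cells, a 7.57-fold (6.32 to 9.13) difference between mature and immature. The gene lies at chr17:35194439-35196320. The C1q-low cells had 810 CPM, whereas the 398 other mature cells had 60.2 CPM (53.9 to 66.9) and were 3.97-fold (3.24 to 4.89) above immature cells with 10 or more C1q UMIs. Ltb was the single TNF ligand of 3 measured that was at least 2-fold higher. Of 21 measured TNF receptor and NF-kB genes, 0 were 2-fold higher or lower, near the 1.31% higher and 0.36% lower over all genes. Cd9, a tetraspanin, had 24.8, 65.0 and 109 CPM over the 3 gates in the same order, a 4.38-fold (3.75 to 5.13) difference, and 106 CPM without the C1q-low cells. None of these markers was particular to LysoDCs: immature cDC2s had 764 CPM of Ltb and 149 CPM of Cd9, and their Plet1 level was also above that of mature LysoDCs, with a UMI in 44.8% of cells thinned to 5000 UMIs.

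Genes typical of epithelial surfaces and junctions had the highest median of the 30 lists with at least 8 measured genes, leaving out the given markers and the gate genes. Of 8 measured members, 4 were at least 2-fold higher in mature cells and 0 were lower, beside 1.31% and 0.36% of all genes. The median log2 ratio of the list was 0.89 against -0.000514 over all genes measured. The 4 higher genes included Plet1, Epcam and F11r, and F11r is a gate check. Epcam, the epithelial adhesion molecule, had 1.71 CPM in immature cells, 6.46 CPM in intermediate cells and 53.4 CPM in mature cells (chr17:87635979-87651129). In the 398 cells with 10 or more C1q UMIs it had 31.0 CPM, 18.1-fold (10.7 to 33.1) above immature cells, with UMIs in 89 cells. Of 17 epithelial marker genes, Epcam alone reached the level to be measured and 5 were at 0 in mature cells. The summed level of the 17 was 61.9 CPM in mature and 6.49 CPM in immature cells, and Epcam alone had 53.4 and 1.71 CPM.

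The mature gate held more C1q-low cells than the immature and intermediate gates. Their share was 12.5% (9.63 to 15.9) of mature cells, against 0.916% of immature, 1.53% of intermediate and 95.9% of immature cDC2 cells. With a limit of 5 UMIs it was 6.15% of mature cells. Depth moves with this split and its part was not tested, with a median of 7863 UMIs in the 57 cells and 14077 in the others. The mature hashtag had a median of 332 UMIs in the 57 cells and 766 in the others. All other hashtags together had 137 and 136.5, and the part of hashtag level was not tested. With cells thinned to 5000 UMIs the share was 10.6% of mature and 0.533% of intermediate cells, and 0 of 621 immature cells, with an exact upper bound of 0.592%. The C1q count fell in separate ranges: 381 of the 455 cells had 50 or more C1q UMIs, 57 had under 10, and 17 lay between.

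**Figure D2:**
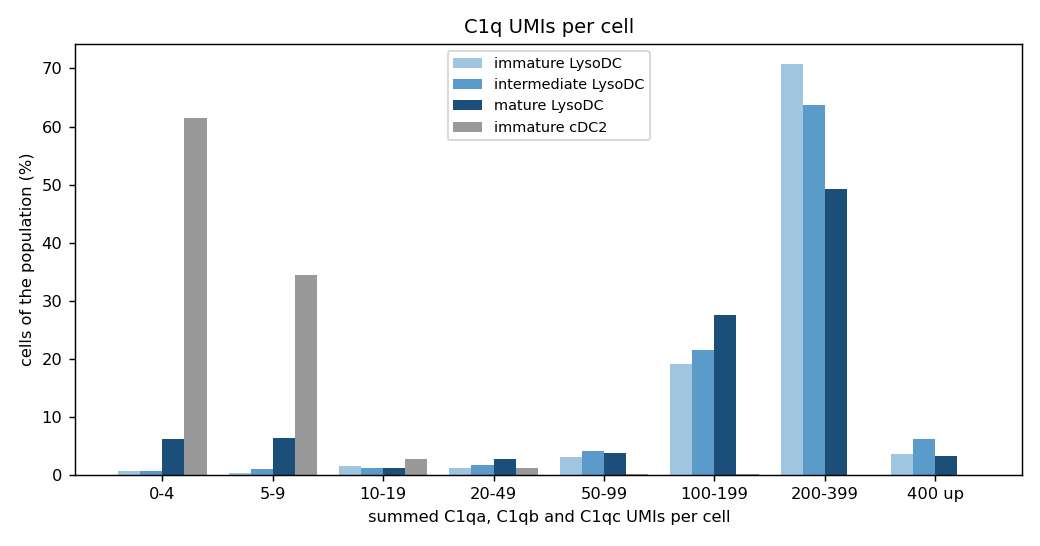
Share of the cells of each population, in percent, by summed C1qa, C1qb and C1qc UMIs per cell, for immature, intermediate and mature LysoDCs and immature cDC2s. Of the LysoDC gates drawn, mature cells have the largest group below 10 UMIs (57 cells), where 95.9% of the immature cDC2s lie.

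The profile of the C1q-low cells lay nearer that of cDC2s than that of the other mature cells, as a description. Across 7453 genes, as log2(CPM + 10), their summed profile correlated at 0.967 with immature cDC2s and at 0.839 with the other mature LysoDCs. These correlations are across genes of 1 library, and genes are not independent replicates. Between C1q-low and other mature cells, 1143 of 7311 genes were at least 2-fold higher (15.6%) and 765 were lower (10.5%). Flt3, a receptor of conventional dendritic cells, had 83.7 CPM in the C1q-low cells, 1.25 CPM in the other mature cells and 104 CPM in immature cDC2s. Zbtb46, a transcription factor of conventional dendritic cells, had 57.8, 2.49 and 63.3 CPM in the same order. Of 14 measured LysoDC identity genes, 10 were at least 2-fold lower in the C1q-low cells, 1 was higher (Cd300a) and 3 were neither. Apart from the C1q genes, which chose the cells, and the gate genes, 5 were lower: Lyz1, Lyz2, Cx3cr1, Csf1r and Bst2. Lyz1 had 365 CPM against 11589 CPM, and Csf1r, the receptor of macrophage growth factor CSF1, had 118 CPM against 897 CPM. Against immature cDC2s, 290 of 7351 genes were at least 2-fold higher in the C1q-low cells (3.95%) and 171 were lower (2.33%). Between the other mature cells and immature cDC2s, 669 of 7221 genes were higher (9.26%) and 846 were lower (11.7%).

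**Figure D3:**
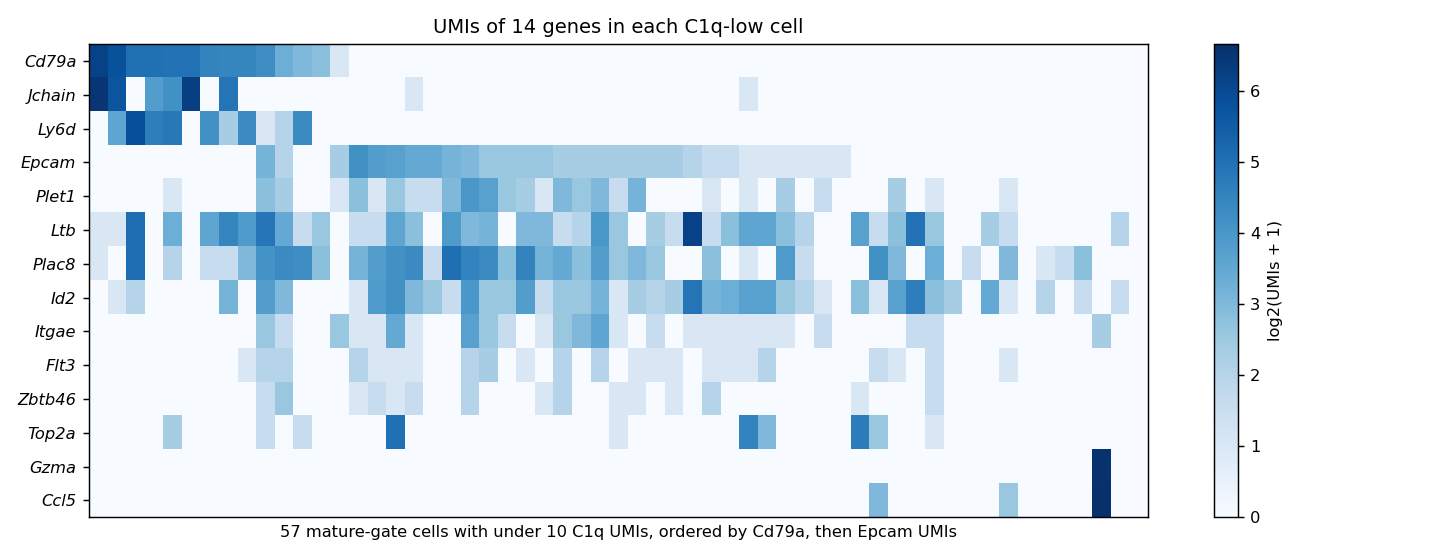
UMIs of 14 genes, as log2(UMIs + 1) by colour, in each of the 57 C1q-low mature-gate cells, one column per cell, ordered by Cd79a and then Epcam. Cd79a, Jchain and Ly6d sit in the cells at the left, while Epcam, Plet1, Id2 and Itgae are spread over many of the cells to their right.

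They were not of 1 kind. Cd79a, a B cell receptor subunit, reached 5 or more UMIs in 13 of the 57 cells, and its 352 UMIs lay in 14 of them. The top 3 of the 57 cells held 77.9% of the UMIs of Jchain, the joining chain of secreted antibodies. For Ly6d, a surface protein of early B-lineage cells, it was 59.3%. Summed over 12 B cell markers, the C1q-low cells had 1135 CPM and the other mature cells 171 CPM. Mature and immature cells as a whole had 250 and 222 CPM. Cd79b, another B cell receptor subunit, had UMIs in 78.1% of C1q-high mature and 88.1% of C1q-high immature cells. It was the 1 marker of the 12 that reached the level to be measured between these C1q-high cells. The sums outside the C1q-low cells therefore do not measure B cell content. The 13 markers of NK cells and innate lymphoid cells summed to 337 CPM in C1q-low and 12.3 CPM in other mature cells, with 4 at 0 in the C1q-low cells. Of the 44 remaining cells, 33 had a UMI of Epcam, Flt3 or Zbtb46, and 2 of the 13 cells also had Epcam. The share with any of the 3 genes was not counted in other populations. Singly, Epcam, Flt3 and Zbtb46 had UMIs in 22.4%, 1.01% and 3.27% of C1q-high mature cells. In immature cDC2s it was 70.8%, 50.4% and 37.2%, all without thinning. Summed without the 13 cells, Epcam stood at 391 CPM and Id2 at 733 CPM, against 386 and 602 CPM in immature cDC2s. All 96 UMIs of Gzma, a granzyme of killer lymphocytes, lay in 1 of the 57 cells, which also held 100 of 112 Ccl5 UMIs. Gzma is among the 13 NK and innate lymphoid markers, so their sum of 337 CPM rests in large part on this 1 cell. The B cell threshold of 5 UMIs was chosen after seeing the data.

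Without the C1q-low cells, 64 of 6889 genes were at least 2-fold higher in mature than in immature cells (0.929%) and 39 were lower (0.566%). Against intermediate cells 12 of 6861 genes were higher (0.175%) and 8 were lower (0.117%), and the 12 included Plet1, Ltb, Epcam, Nid1 and Slamf7. Of the 91 genes higher with all cells, 57 were at least 2-fold higher again at the same level of 10 CPM. Another 9 kept a 2-fold ratio at a mean under 10 CPM, and 25 had a ratio under 2-fold. Among the 25 were Id2, a transcription factor of dendritic cells, and Lsp1, an actin-binding protein of leukocytes. The ratio of Id2 was 9.46 with all cells and 1.81 without, and that of Lsp1 was 3.97 and 1.08. In 22 of these 25 genes and in 32 of the 57 the level in immature cDC2s exceeded that in mature LysoDCs. Over 7221 genes the median log2 ratio of C1q-high mature cells to immature cDC2s was -0.25. Most of these 7221 genes were thus higher in the cDC2s. The counts of 22 and 32 used the level in all mature cells instead, and the share over all genes was not counted that way. Neither count is therefore read as a trait of its genes. In the C1q-high mature cells Id2 had 10.3 CPM against 602 CPM in immature cDC2s, and Flt3 had UMIs in 4 of 398 cells.

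**Figure D4:**
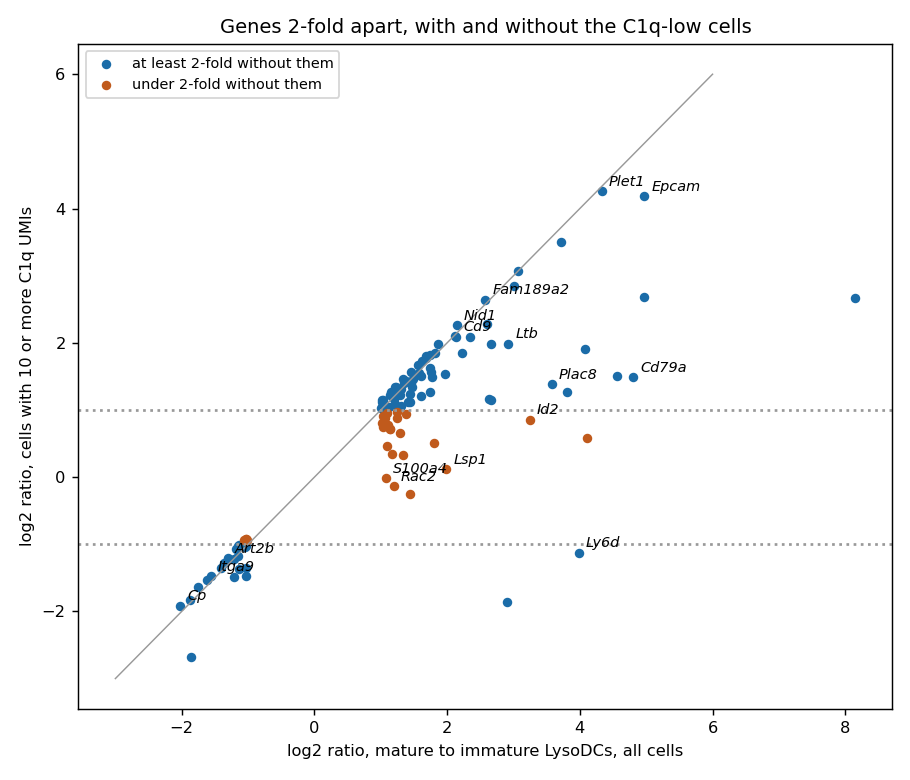
Log2 ratio of mature to immature LysoDCs with all cells (horizontal) and with only cells of 10 or more C1q UMIs (vertical), for 115 genes that differ at least 2-fold with all cells and have UMIs in both. Points on the diagonal have the same ratio with and without the C1q-low cells, and without them 89 are at least 2-fold apart in either direction whatever their level, of which Ly6d and 1 other lie on the opposite side, and 26 are not.

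The genes kept without the C1q-low cells fall in several roles. Among adhesion and matrix genes, Nid1, a basement membrane linker, had 12.4 CPM in immature, 29.1 CPM in intermediate and 54.7 CPM in mature cells, and 59.5 CPM in the C1q-high cells, 4.78-fold (3.84 to 5.99) above immature cells. It had 1.99 CPM in C1q-low cells and 8.75 CPM in immature cDC2s, so its level was higher without the C1q-low cells. Anxa2, a membrane-binding annexin, went from 25.6 to 61.3 to 86.1 CPM. Itga9, an integrin subunit, went the other way, from 40.1 to 23.2 to 13.6 CPM. Fam189a2, which was given no role here, went from 8.88 to 30.1 to 52.8 CPM.

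Lectins of the dectin-2 gene cluster differed in the same direction. Of 20 measured pattern recognition and lectin genes, 3 were at least 2-fold higher and 1 was lower, beside 1.31% and 0.36% of all genes. Clec4n (dectin-2), which binds fungal mannans, had 82.1 CPM in immature, 160 CPM in intermediate and 188 CPM in mature cells. Clec4d, its partner receptor, had 37.9, 81.3 and 84.2 CPM in that order, and Clec4a1, another C-type lectin, had 14.6, 34.5 and 32.2 CPM. In Clec4d and Clec4a1 the intermediate and mature intervals overlapped, so the difference lay between immature and intermediate cells. The lower member was Tlr12, at 20.2 CPM in immature and 9.15 CPM in mature cells.

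Cytokine, survival and chemokine genes gave small sets. Il1b, the interleukin-1 beta gene, had 379 CPM in the immature gate, 622 CPM in the intermediate gate and 773 CPM in the mature gate, 2.04-fold (1.95 to 2.13). Cxcl14, a chemokine, had 6.49, 11.3 and 20.9 CPM. Bcl2l11 (Bim), a pro-apoptotic Bcl2 family member, had 22.8, 44.9 and 57.8 CPM. Ccnd2 (cyclin D2) had 68.4, 112 and 204 CPM. These genes were ordered over the 3 gates, with mature cells highest in each.

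Il12b, the p40 subunit shared by IL-12 and IL-23, rested on few cells. Its level was 12.6 CPM in the immature gate, 39.4 CPM in the intermediate gate and 45.9 CPM in the mature gate, 3.63-fold (2.91 to 4.57), and yet 14 of 398 C1q-high mature cells had a UMI and the top 3 held 85.4% of 281 UMIs. In immature cells with 10 or more C1q UMIs it was 20 cells, with 81.1% of the UMIs in the top 3. Of the 57 genes called with and without the C1q-low cells, 4 had most of their C1q-high UMIs in 3 cells: Il12b, Plac8 and the immunoglobulin genes Igkc and Ighg2b.

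Of 13 measured class II presentation genes, 2 were higher (1.31% of all genes were). H2-Oa and H2-Ob, subunits of the H2-O chaperone that limits class II peptide loading, were 6.17-fold and 6.31-fold higher with all cells. Without the C1q-low cells both kept a ratio of at least 2-fold, but their mean fell under the 10 CPM needed to be counted. They had 13.5 and 11.2 CPM in these mature cells, and immature cDC2s had 365 and 83.2 CPM. The other 11 class II genes were within 2-fold. Of 24 class I genes 1 was higher, H2-M2, a non-classical class I molecule, which went from 25.4 to 53.5 to 81.4 CPM and had 87.0 CPM in C1q-high cells. Slamf7 and Cd244a, both SLAM family receptors, were the 2 of 13 measured costimulation genes that were higher, at 126 and 74.7 CPM in mature cells against 46.6 and 34.2 CPM in immature cells. Cd86 was 1.85-fold (1.59 to 2.15) higher, under the 2-fold limit.

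Of 25 measured genes of dendritic cell maturation and migration 1 was higher (Il12b) and 0 were lower, beside 1.31% and 0.36% of all genes, with a median log2 ratio of 0.08. Fscn1, an actin bundler of mature dendritic cells, was within 2-fold, at 62.9 CPM in mature against 92.2 CPM in immature cells, and Ccr7, the receptor that leads dendritic cells to lymphatics, had 4.09 CPM in mature cells and 1.07 CPM in C1q-high ones.

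Among lower genes, Cp (ceruloplasmin), which carries copper and oxidises iron, had the lowest ratio of the named genes with all cells. Its levels were 129 CPM (122 to 137) in immature, 72.2 CPM in intermediate and 31.9 CPM (27.5 to 36.7) in mature cells, 4.06-fold (3.48 to 4.75) lower, and 3.76-fold lower without the C1q-low cells. Cp UMIs were in 460 of 649 immature and 120 of 398 mature C1q-high cells. Art2b, an ADP-ribosyltransferase, was 2.47-fold lower and Dkk3 2.28-fold lower. Of 30 measured interferon-stimulated genes, 2 were at least 2-fold lower and 0 were higher, beside 0.36% and 1.31% of all genes. Rsad2 (viperin) had 36.5 CPM in immature and 14.2 CPM in mature cells, and Cxcl10, a chemokine, was 2.19-fold lower. The list median was -0.24 on the log2 scale. Cxcl10 rested on few cells: the top 3 held 60.3% of the UMIs of C1q-high mature cells and 59.7% in immature ones, where 1 cell held 187 of 444 UMIs.

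Without the C1q-low cells, 9 of 20 measured cell cycle genes were at least 2-fold lower in mature cells and 0 were higher, beside 0.566% of all genes lower. The other 11 were within 2-fold. The median log2 ratio of the list was -0.81, and with all cells 2 of 21 were lower and the median was -0.55. Top2a, the S to M phase topoisomerase, had 21.9 CPM in C1q-high mature and 60.8 CPM in immature cells. Cells with 5 or more Top2a UMIs made up 5 of 398 (1.26%; 0.409 to 2.91) C1q-high mature, 39 of 968 (4.03%; 2.88 to 5.47) intermediate and 33 of 649 (5.08%; 3.53 to 7.07) immature cells. In the C1q-low cells Top2a stood at 199 CPM and 3 of them held 78.0% of its UMIs.

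**Figure D5:**
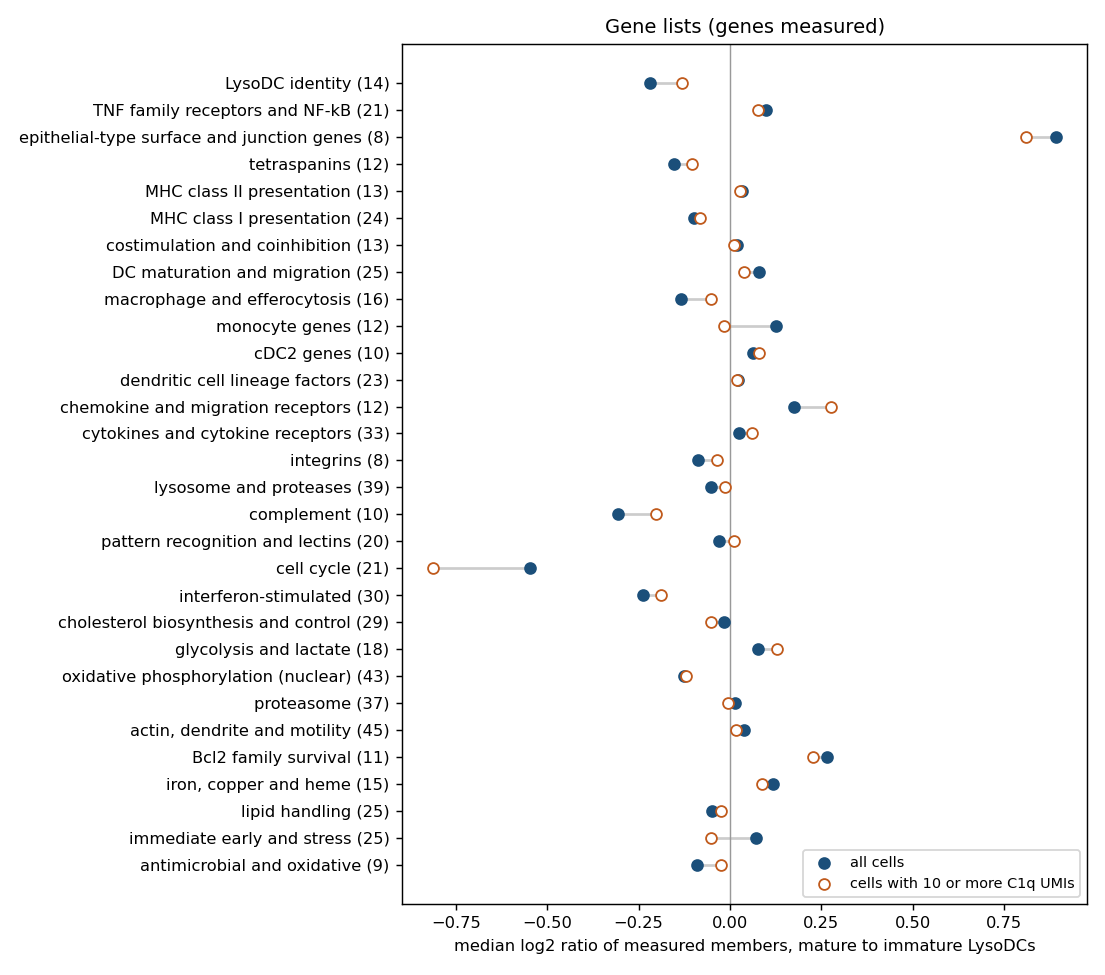
Median log2 ratio of mature to immature LysoDCs over the measured members of 30 gene lists, with all cells (filled) and with cells of 10 or more C1q UMIs (open); the number of genes measured stands in parentheses. The epithelial-type list stands highest, at 0.89, and the cell cycle list lowest, at -0.55 with all cells and -0.81 without the C1q-low cells.

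No gene of the lysosome (39 measured), oxidative phosphorylation (43), proteasome (37), cholesterol (29), glycolysis (18) or complement (10) lists was 2-fold apart between mature and immature cells. With 1.31% of all genes higher and 0.36% lower, counts of 0 in lists of this size are near the share over all genes. Against intermediate cells C3, the central complement component, was lower.

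The LysoDC gates were also set beside immature and maturing cDC2s. In the cDC2 contrast 98 of 7215 genes were higher (1.36%) and 62 were lower (0.859%). Of 6419 genes measured in both contrasts, 77 were at least 2-fold higher in mature than in immature LysoDCs and 81 were higher in maturing than in immature cDC2s. The 2 genes higher in both are 2.60% of the first list and 2.47% of the second, near the 1.26% of all these genes that were higher in maturing cDC2s. Another 7 genes were higher in mature LysoDCs and lower in maturing cDC2s, and 2 were the reverse. Gzma, which is among the genes higher in both, rested on 1 mature-gate cell. In maturing cDC2s 1 cell held 135 of its 136 UMIs. Maturing cDC2s are the smaller of the pair at 261 cells, and 16.9% of them had 10 or more C1q UMIs, with Lyz1 at 1826 CPM in maturing against 528 CPM in immature cDC2s. Their part in the cDC2 contrast was not tested.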

How the data were processed

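Per the file headers, the deposited matrix holds raw UMI counts per gene and hashtag for each barcode, written by Cell Ranger 6.0.1; the submitters' processing notes name Cell Ranger 2.0.0 and mm10. No normalization was recorded for these counts. Hashtags were called with HTODemux of Seurat 5.3.0 (R 4.3.3; positive quantile 0.99, centred log ratio within hashtags). Of 11878 barcodes, 8343 had 1 hashtag, 2422 several and 1113 none. Barcodes with under 1000 UMIs, under 500 genes or over 10% mitochondrial UMIs were dropped. Counts were summed per population and divided by the sum (CPM). Levels have exact Poisson and ratios exact conditional binomial 95% intervals, and shares exact Clopper-Pearson intervals; all cover counting error only. A gene was called at 2-fold or more if its mean CPM over both populations reached 10. A count of 0 entered ratios as 3 counts. TMM factors came from edgeR 4.0.16. Sums, intervals and figures were made with Python 3.11.15, numpy 2.4.6, scipy 1.17.1, pandas 2.3.3 and matplotlib 3.10.9, and the steps were tested on simulated data. Barcodes with several hashtags were removed as doublets and no doublet caller was run.

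Named genes were the 15 largest ratios each way against immature cells and 10 against intermediate cells (at least 50 CPM in the higher), 8 each way for the C1q-low cells (at least 100 CPM), the given markers and up to 4 members of each list; mitochondrial, ribosomal, immunoglobulin and unnamed genes and the gate genes were left out. The same rule was applied without the C1q-low cells after values were seen, and Igkc, Ighg2b, C3, Ccr7, Flt3, Zbtb46 and the LysoDC identity genes set beside the C1q-low cells were likewise chosen after their values were seen. The members and lists were chosen with earlier results of these data known. The second dataset served only to count shared barcodes, because its 1 matrix pools the 4 LysoDC subsets under hashtags that the subsets share. Alternatives are given in the closing section. Some genes are not reported here.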

Additional observations from a re-analysis of the deposited data

Results flagged for a closer look

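Some genes moved one way in LysoDCs and the other way in cDC2s, by at least 2-fold in both with counting intervals clear of 1. Ltb was higher in mature than in immature LysoDCs (log2 ratio 2.92) and lower in maturing than in immature cDC2s (-1.09). Ifi27l2a, an interferon-inducible gene, was lower in mature LysoDCs (-1.16) and higher in maturing cDC2s (1.47). Nrp2, a semaphorin co-receptor, was lower in mature LysoDCs (-1.06) and higher in maturing cDC2s (1.67). Ly6d and Jchain, B-lineage genes, were higher in mature LysoDCs with all cells (3.98 and 4.11), and in maturing cDC2s their log2 ratios were -1.39 and -4.37. In LysoDCs this direction rested on the C1q-low cells and the Cd79a-bearing cells: Ly6d was -1.12 with C1q-high cells only, and without mature cells of 5 or more Cd79a UMIs Ly6d was -1.53 and Jchain -1.27. Both lay in few cells: the top 3 mature cells held 71.7% of the Jchain and 57.8% of the Ly6d UMIs, and in immature cDC2s 3 cells held 86.5% of the Jchain UMIs and 40.1% of the Ly6d UMIs. Of the maturing cDC2s, 83.1% had under 10 C1q UMIs, against 95.9% of the immature ones, and the part of this in the ratios was not tested. These differences between contrasts were not tested, since each population is 1 sum.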

How the results depend on the processing

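No paired analysis was possible because each population is 1 pool in 1 library and no result comes from a test. Depth limits genes of few UMIs, and the count of genes past 2-fold moved most with the level required. Against immature cells the 91 higher genes were 42 with a mean of at least 30 CPM and 2138 with no filter beyond 1 UMI, and the 25 lower genes were 11 and 1275, and 39 with C1q-high cells only. Against intermediate cells the 34 higher genes were 62 at a hashtag quantile of 0.95, 12 with C1q-high cells only, 59 from the mean of each cell's CPM, 14 at 30 CPM and 2688 with no filter. The 2 lower genes were 8 with C1q-high cells, 4 from the mean of cells, 5 without the tenth of cells with most UMIs, 1 at 30 CPM and 369 with no filter. Chosen after seeing the data, a log ratio centred within cells gave 22 higher and 27 lower, and leaving out mature cells with 5 or more Cd79a UMIs gave 17 higher. The 80 genes that rise in order were 38 at 30 CPM, and the 25 that fall in order were 39 with C1q-high cells and 11 at 30 CPM. The 2 genes shared with cDC2s were 1 at the stricter hashtag quantile, 0 from the mean of cells and 0 at 30 CPM. The C1q-low share was 6.15% with a limit of 5 UMIs. With C1q-high cells only, the log2 ratio to immature cells turned to -1.12 for Ly6d, -0.26 for S100a10, -0.017 for S100a4 and -0.13 for Rac2. Without the Cd79a cells it turned to -1.53 for Ly6d, -0.95 for Cd79a, -1.27 for Jchain and -1.66 for Mzb1, and to -0.10 for Cd79a against intermediate cells. These settings change which cells or genes enter by construction, and beyond that the cause was not tested. Of 184 ratios of named genes, 182 moved little with TMM scaling, 167 at a quantile of 0.95 and 119 with C1q-high cells only.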

Other observations

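Ccr9, a gut-homing chemokine receptor, had 124 CPM in immature, 156 CPM in intermediate and 230 CPM in mature cells, 1.86-fold (1.72 to 2.02), and the same 230 CPM in C1q-high mature cells. Itga2b, an integrin subunit known from platelets, had 10.0 CPM in immature, 19.7 CPM in intermediate and 27.6 CPM in mature cells, with UMIs in 110 of 398 C1q-high mature cells.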
